A study of Homo sapiens with 15 samples.

Results

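The receptor tyrosine kinases described here are the 10 genes EGFR, ERBB2, MET, PDGFRA, PDGFRB, FGFR1, AXL, DDR1, DDR2 and EPHA2, chosen by symbol from a table of 37787 genes, and all 10 passed the filter on low counts. Their transcripts were measured by RNA-seq in HGrC1 cells, used at passage 14, which are human granulosa cells that were immortalized without luteinizing and carry FOXL2 without the mutation. The 5 conditions, each with 3 libraries (A, B and C), differed in the plasmids transfected: empty plasmids (Vectors), FOXL2 wild type with SMAD3 (FOXL2WT), the FOXL2C134W mutant with SMAD3 (FOXL2C134W), and either of these with a constitutively active FOXO1 added (FOXL2WT + FOXO1 and FOXL2C134W + FOXO1). SMAD3 was thus part of every condition except Vectors, and Vectors differed from the others in both factors at once. Plasmids were delivered by lipofection for 4 h, and cells were then kept in serum-free medium for 24 h, so the data describe transient overexpression in 1 line without added serum growth factors.

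Receptor tyrosine kinases are membrane proteins that bind a growth factor, a membrane-bound ephrin or a collagen outside the cell and phosphorylate tyrosines inside it, which starts the RAS-ERK and PI3K-AKT cascades. EGFR and ERBB2 belong to the ErbB family, MET is the receptor of hepatocyte growth factor, AXL binds GAS6, EPHA2 binds ephrin-A ligands, PDGFRA, PDGFRB and FGFR1 bind platelet-derived and fibroblast growth factors, and DDR1 and DDR2 are activated by collagen. In the ovarian follicle, EGF-like factors relay the ovulatory signal from granulosa cells to the cumulus.

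The libraries held 14962245 to 25339094 estimated counts. FOXL2 stood at 554 to 566 CPM (counts divided by a TMM-scaled library size) in FOXL2WT but at 121 to 175 CPM in FOXL2C134W, and at 8.28 to 9.54 CPM in Vectors. SMAD3 stood at 2595 to 2889 CPM in FOXL2WT, 812 to 885 CPM in FOXL2C134W and 240 to 263 CPM in Vectors. The mutant and the amount of transfected transcript therefore cannot be told apart in FOXL2C134W vs FOXL2WT. FOXL2 was also lower with FOXO1 in the wild type condition, at 374 to 401 CPM, but not in the mutant one, at 139 to 176 CPM. The addition of FOXO1 came with less SMAD3, 957 to 976 CPM in FOXL2WT + FOXO1 and 379 to 411 CPM in FOXL2C134W + FOXO1, and FOXO1 itself reached 104 to 132 CPM in the former and 39.1 to 47.2 CPM in the latter. Of the markers that define granulosa cells, FSHR had 0 counts in every library, CYP19A1 had 0 to 4 and AMH 14 to 43, while the lineage factors GATA4 and WT1 had at least 1953 and 607 counts. Other granulosa markers were low, with INHA at 0 to 4 counts, AMHR2 at 0 to 7, NR5A2 at 3 to 13 and INHBB at 16 to 46. HSD17B1, NR5A1 and INHBA lay between 53 and 202 counts. Of the 10 epithelial markers 8 exceeded 3 counts in some library, with summed levels of 5782 to 6117 CPM in Vectors, 6530 to 6604 CPM in FOXL2WT and 6152 to 7019 CPM in FOXL2C134W, although CDH1, ESRP1 and GRHL2 had at most 12 counts. All 10 fibroblast and smooth muscle markers did so, with summed levels of 7807 to 8077, 7891 to 8085 and 7986 to 8505 CPM in the same order, most of it VIM. Of the 8 endothelial and blood markers 6 did so, with CD68 at 88.7 to 117 CPM and PTPRC at most 5 counts, and with sums of 110 to 124, 96.1 to 103 and 95.95 to 103.8 CPM. Granulosa markers other than FOXL2 summed to 203.8 to 215.8, 190.2 to 203.3 and 208.8 to 213.4 CPM. The part of these marker genes in the results was not tested.

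Per transcript length, AXL was the most abundant of the members, and PDGFRA was close to absent. AXL had a median of 215 TPM (a share of all transcripts, corrected for length) over the 15 libraries, with a range of 194 to 241 TPM. EPHA2 followed at 90.6 TPM (81.7 to 101), and MET stood at 56.2 TPM (48.6 to 63.0). These 3 genes did not overlap in any library, nor did MET overlap with DDR2, whose median was 23.5 TPM (19.8 to 27.8). Below them, ERBB2 at 19.3 TPM (15.8 to 25.8), DDR1 at 15.9 TPM (10.997 to 25.6), EGFR at 14.3 TPM (12.02 to 20.1) and PDGFRB at 10.6 TPM (7.74 to 16.4) had ranges that each overlapped with those of its neighbours, so their order is not fixed. PDGFRA had a median of 0.321 TPM and only 14 to 35 estimated counts per library. FGFR1 was the exception in this ranking. It had rank 3 with 57.2 TPM (28.2 to 87.5), but rank 5 with 14.6 TPM (12.6 to 17.6) when only coding transcripts of at least 2500 bases were counted, a limit chosen after the data were seen. Among all 58 receptor tyrosine kinase genes listed, AXL, EPHA2, FGFR1 and MET took the first 4 places by median TPM, ahead of RYK at 46.2 TPM and EPHB2 at 33.5 TPM. The family members of EGFR, ERBB2 and AXL that are not among the 10 had lower levels than these 3. ERBB3, the partner of ERBB2, had 1.23 TPM and ERBB4 at most 3 counts, and of the AXL family TYRO3 had 12.2 TPM and MERTK 0.246 TPM.

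**Figure D1:**
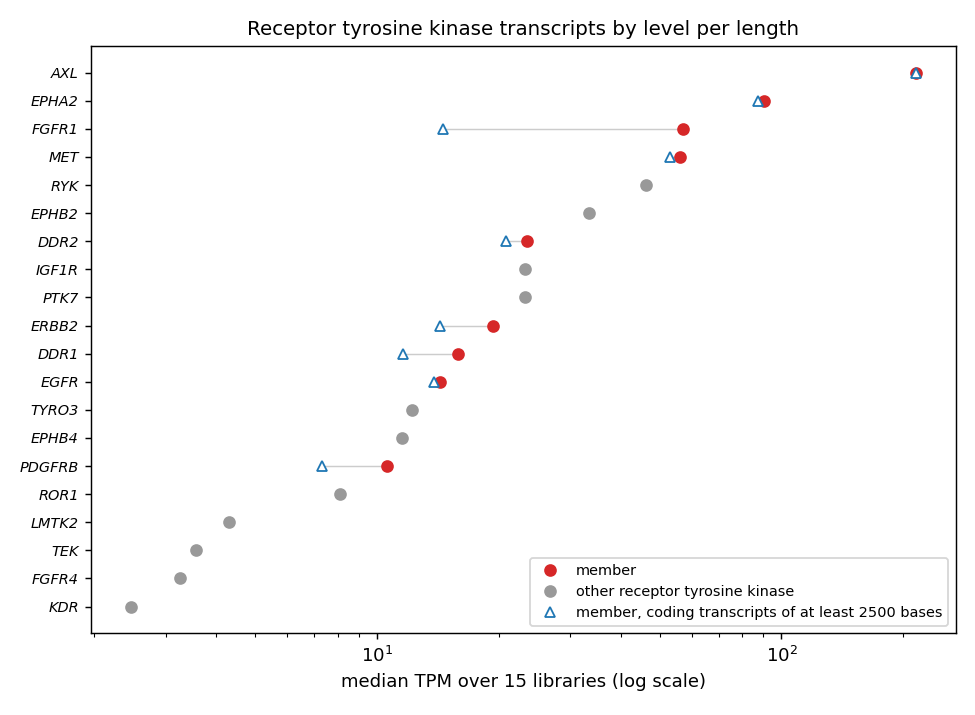
Median TPM over 15 libraries (x axis, log scale) of the 20 most abundant receptor tyrosine kinase genes, which leaves out PDGFRA, with members as red points, others as grey points, and members over coding transcripts of at least 2500 bases as open triangles. AXL lies highest at 215 TPM, and FGFR1 drops from 57.2 to 14.6 TPM when short transcripts are left out.

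All members are annotated as protein-coding genes on GRCh38 (GENCODE 44). EGFR (ENSG00000146648) spans chr7:55019017-55211628 on the plus strand, ERBB2 (ENSG00000141736) chr17:39687914-39730426 (plus), AXL (ENSG00000167601) chr19:41219223-41261766 (plus), EPHA2 (ENSG00000142627) chr1:16124337-16156069 (minus), DDR1 (ENSG00000204580) chr6:30876421-30900156 (plus) and DDR2 (ENSG00000162733) chr1:162631373-162787405 (plus). The others are MET (ENSG00000105976) at chr7:116672196-116798377 (plus), PDGFRA (ENSG00000134853) at chr4:54229280-54298245 (plus) and PDGFRB (ENSG00000113721) at chr5:150113839-150155872 (minus). Because the transfected proteins are DNA-binding transcription factors, the promoters of the members (RefSeq, GRCh38.p14, the 250 bases before the start) were searched on both strands for short motifs, and 9 of the 10 members had an entry. The forkhead core GTAAACA was found in 0 of the 9, against 2.98% of all 27305 promoters, and its shorter form TAAACA, which every GTAAACA contains, in 0 of the 9 against 11.1%. The SMAD box CAGAC was found in MET, PDGFRA, PDGFRB, AXL, DDR1 and DDR2 (37.8% of all promoters). The GC box GGGCGG was found in EGFR, MET, PDGFRB, AXL and EPHA2 (42.3%). The AP-1-like pattern TGANTCA, with any base at N, was found in ERBB2 as TGATTCA and in PDGFRA as TGAATCA (6.6%). The upstream stretches of 4 members called in the comparisons below are given 5′ to 3′ on the strand of the gene. GC boxes (either strand) and the TGANTCA match are in capitals. They cover chr7:55018767-55019016 for EGFR, chr17:39687844-39687913 for ERBB2, chr19:41218973-41219222 for AXL and chr1:16156070-16156319 for EPHA2, and include only bases outside the annotated gene.
EGFR: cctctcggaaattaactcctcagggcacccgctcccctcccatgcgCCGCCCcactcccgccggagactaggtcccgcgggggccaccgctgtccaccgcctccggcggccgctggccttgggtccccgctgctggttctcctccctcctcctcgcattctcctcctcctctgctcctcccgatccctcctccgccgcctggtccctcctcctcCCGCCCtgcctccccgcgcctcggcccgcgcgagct
ERBB2: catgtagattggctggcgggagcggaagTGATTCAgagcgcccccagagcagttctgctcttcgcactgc
AXL: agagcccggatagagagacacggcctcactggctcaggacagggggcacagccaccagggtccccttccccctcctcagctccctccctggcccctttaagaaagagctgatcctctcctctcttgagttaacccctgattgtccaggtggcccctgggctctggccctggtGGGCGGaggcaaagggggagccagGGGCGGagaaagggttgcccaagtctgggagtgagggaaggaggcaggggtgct
EPHA2: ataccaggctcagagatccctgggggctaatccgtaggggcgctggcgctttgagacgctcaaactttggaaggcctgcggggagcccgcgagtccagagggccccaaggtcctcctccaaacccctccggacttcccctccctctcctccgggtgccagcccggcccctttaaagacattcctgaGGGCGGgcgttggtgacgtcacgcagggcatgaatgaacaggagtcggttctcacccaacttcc
The GC-rich stretch of EGFR carries its GC boxes as CCGCCC, the reverse complement of the motif, whereas those of AXL and EPHA2 read in the sense direction. The 70 bases of ERBB2 hold the TGANTCA match, as TGATTCA, and no GC box. These matches describe the letters only, since binding was not measured in these data.

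To learn what the mutant changes relative to wild type FOXL2, FOXL2C134W was compared with FOXL2WT. The 2 ErbB receptors EGFR and ERBB2 were higher in FOXL2C134W, and none of the other 8 members passed the test. EGFR stood at 107, 113 and 112 CPM in FOXL2WT libraries A, B and C and at 118, 147 and 139 CPM in FOXL2C134W. The groups did not overlap, but FOXL2C134W A lay close to the FOXL2WT libraries while B and C lay well above. The difference was 1.22-fold (log2 fold change 0.28, SE 0.07, edgeR adjusted p = 0.00945). ERBB2, the ErbB receptor without a known ligand, stood at 51.6, 48.7 and 51.2 CPM in FOXL2WT and at 58.9, 60.0 and 58.2 CPM in FOXL2C134W. All 3 mutant libraries lay above every library of the 4 other conditions, where the highest value was 54.7 CPM. The difference was 1.17-fold (log2 fold change 0.22, SE 0.05, edgeR adjusted p = 0.00476). These 2 of 10 members compare with 1560 of 13868 genes called in this contrast (11.2%), of which 989 were higher (7.13%) and 571 lower (4.12%). The median log2 fold change was 0.08 over the members and -0.01 over all genes tested. The 8 uncalled members had log2 fold changes from -0.04 (EPHA2) to 0.14 (FGFR1). FGFR1 stood at 60.0, 57.0 and 58.3 CPM in FOXL2WT and 63.0, 66.3 and 63.5 CPM in FOXL2C134W, without overlap, but its adjusted p was 0.121 (edgeR). Without FOXL2C134W B the EGFR difference missed the threshold (log2 fold change 0.22, edgeR adjusted p = 0.0636).

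**Figure D2:**
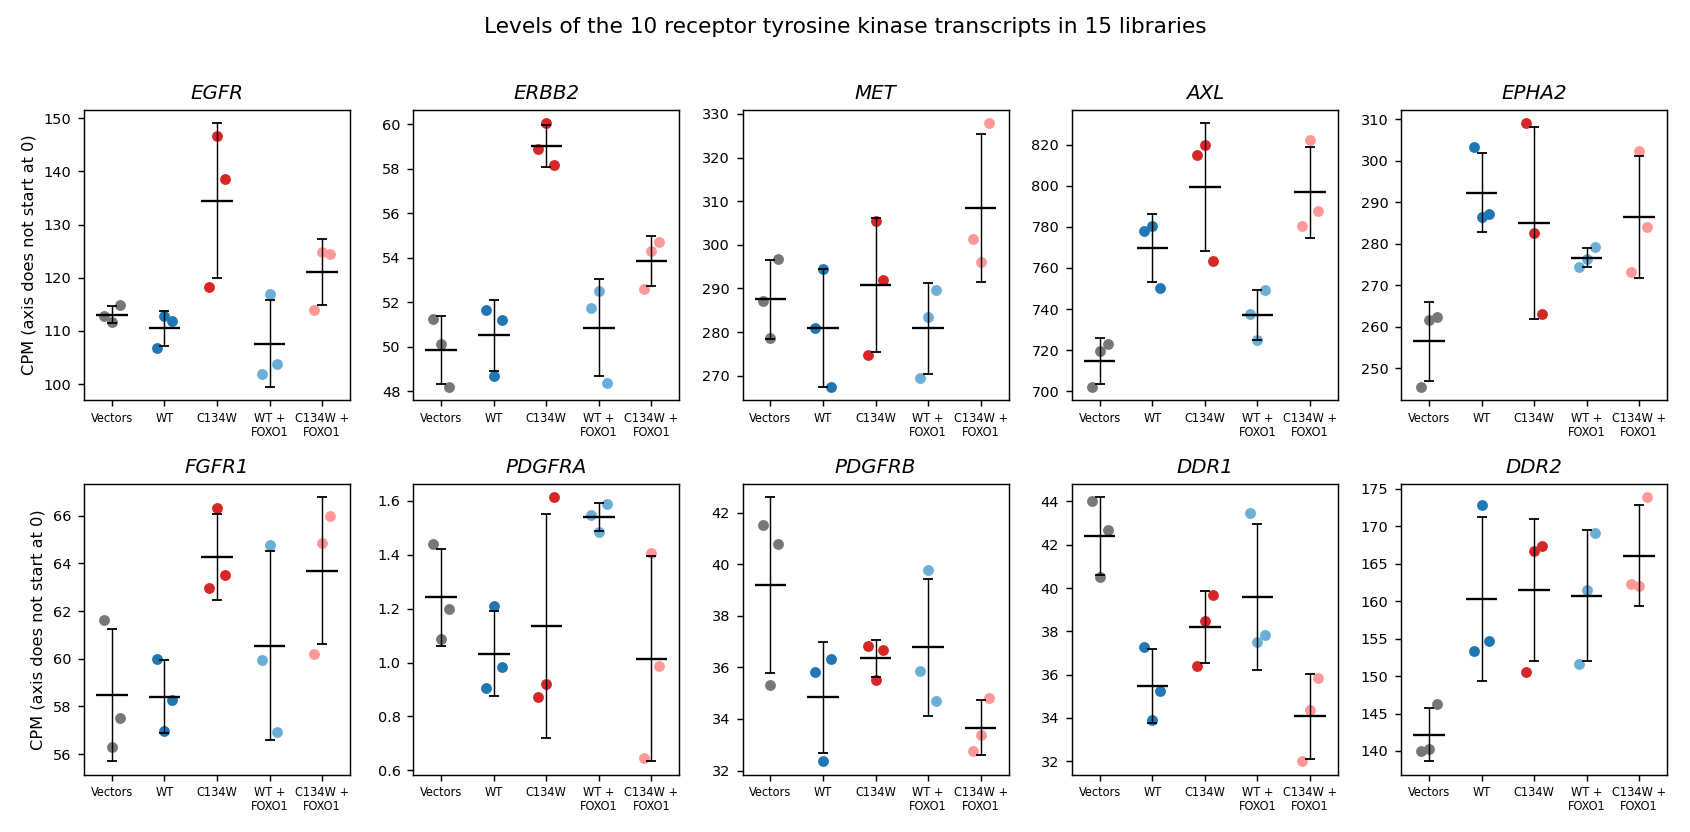
Level of each member in CPM (y axis, which does not start at 0) in the 15 libraries, by condition, where each point is 1 library and black lines give the mean and SD of 3 libraries. The FOXL2C134W libraries of ERBB2 sit between 58.2 and 60.0 CPM, above all others, whereas those of EGFR spread from 118 to 147 CPM.

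The difference of EGFR moved together with a trend in gene length, and that of ERBB2 less so. In FOXL2C134W vs FOXL2WT, the median log2 fold change of all genes went from -0.09 in the shortest of 5 equal length classes to 0.09 in the longest. EGFR, with an effective length of 9219 bases, was longer than 99.2% of the genes tested, DDR2 (7880 bases) longer than 98.3% and MET (6043 bases) longer than 95.6%, while ERBB2 (3095 bases) was longer than 75.0%. By library, the longest class exceeded the shortest by 0.18 and 0.17 on the log2 scale in FOXL2C134W B and C but not in FOXL2C134W A (-0.02), and by -0.07, -0.08 and -0.08 in FOXL2WT A, B and C. Within FOXL2C134W, the libraries with the excess of long genes were those with the high EGFR values. In FOXL2C134W + FOXO1 this was not so, since C had an excess of 0.14 and B of -0.00 with EGFR at 124 and 125 CPM. With an offset for gene length in every library, EGFR had a log2 fold change of 0.06 (edgeR adjusted p = 0.402), while ERBB2 kept 0.18 (edgeR adjusted p = 0.0154). With the same offset, DDR2 had a log2 fold change of -0.18 (edgeR adjusted p = 0.0105), so the length offset decides the direction given for DDR2. FGFR1 had 0.18 (edgeR adjusted p = 0.0483) with this offset and was called in no other setting. The offset took FGFR1 at an effective length of 1335 bases, longer than 31.4% of the genes tested. Its leading transcripts by share of reads had 3816 to 5590 bases, so the length used for FGFR1 is uncertain. For the counts imported with transcript lengths and tested in DESeq2, EGFR kept 0.34 (adjusted p = 0.00433), and ERBB2 had 0.17 (adjusted p = 0.605). Whether length trends arose in the cells or in the libraries was not tested.

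**Figure D3:**
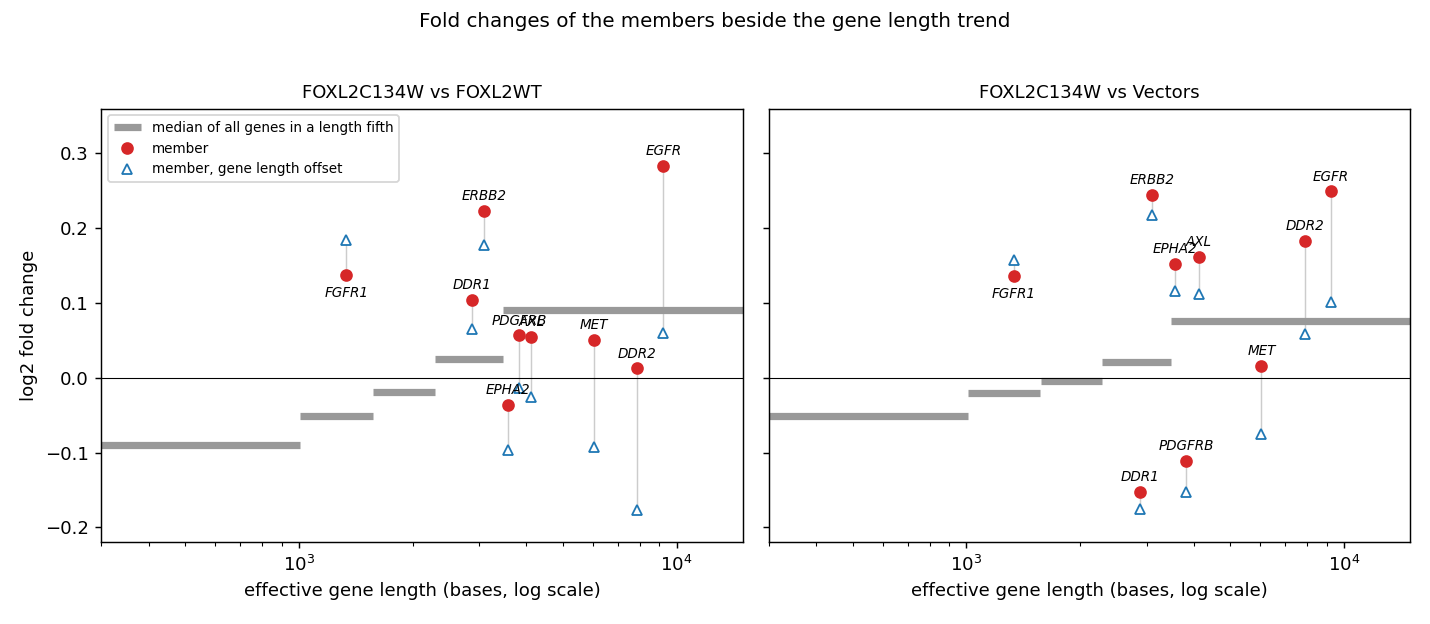
Log2 fold change (y axis) of 9 members against effective gene length in bases (x axis, log scale) in FOXL2C134W vs FOXL2WT (left) and FOXL2C134W vs Vectors (right), with grey bars for the median of all genes in each of 5 length classes, red points for the members and open triangles for the members with a gene length offset. PDGFRA is left out for its low counts. EGFR and DDR2 move down most under the offset, and ERBB2 least among those called.

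FOXL2C134W was then compared with Vectors, to see what the mutant with SMAD3 changes relative to empty plasmids. EGFR, ERBB2, DDR2 and AXL were higher in FOXL2C134W, 4 of 10 members, against a background of 2041 of 13868 genes called (14.7%), of which 1037 were higher (7.48%) and 1004 lower (7.24%). This comparison shares the FOXL2C134W libraries with the preceding contrast and is not independent of it. EGFR was at 113, 112 and 115 CPM in Vectors A, B and C, a narrow range just below that of FOXL2C134W. The difference was 1.19-fold (log2 fold change 0.25, SE 0.07, edgeR adjusted p = 0.0147). ERBB2 was at 51.2, 50.1 and 48.2 CPM in Vectors, 1.18-fold below FOXL2C134W (log2 fold change of the latter 0.24, SE 0.05, edgeR adjusted p = 0.00154). AXL, the receptor of GAS6, was at 702, 719 and 723 CPM in Vectors and at 815, 820 and 763 CPM in FOXL2C134W, and the groups did not overlap. The log2 fold change of AXL was 0.16 (SE 0.04, edgeR adjusted p = 0.00488). DDR2, the receptor of fibrillar collagen, was at 140, 140 and 146 CPM in Vectors and at 151, 167 and 167 CPM in FOXL2C134W. Its log2 fold change was 0.18 (SE 0.05, edgeR adjusted p = 0.0296). AXL and DDR2 also lay above Vectors in all FOXL2WT libraries, with values given below. The median log2 fold change was 0.14 over the members and 0.00 over all genes. Of the 6 members not called, EPHA2 had 0.15 (edgeR adjusted p = 0.056), and the others ranged from -0.15 (DDR1 and PDGFRA) to 0.14 (FGFR1). The length trend was present here too, with medians of -0.05 and 0.08 in the shortest and longest class, and ERBB2 alone passed with the length offset (log2 fold change 0.22, edgeR adjusted p = 0.00221). In DESeq2 with transcript lengths, however, ERBB2 had 0.37 (adjusted p = 0.163) and DDR2 0.21 (adjusted p = 0.203). With the offset, EGFR had 0.10 (edgeR adjusted p = 0.0942), AXL 0.11 (edgeR adjusted p = 0.0796) and DDR2 0.06 (edgeR adjusted p = 0.409). Leaving out Vectors B, FOXL2C134W B or FOXL2C134W C ended the call of EGFR (edgeR adjusted p 0.0562, 0.0913 and 0.0567), and leaving out any of these or Vectors A ended that of DDR2 (edgeR adjusted p from 0.0786 to 0.111).

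FOXL2WT was compared with Vectors in the same way. EPHA2, the receptor of ephrin-A1, was higher and DDR1, the collagen receptor of epithelial cells, was lower in FOXL2WT, 2 of 10 members, against 842 of 13868 genes called (6.07%), of which 341 were higher (2.46%) and 501 lower (3.61%). EPHA2 was at 245, 262 and 262 CPM in Vectors and at 303, 286 and 287 CPM in FOXL2WT. Its log2 fold change was 0.19 (SE 0.05, edgeR adjusted p = 0.0384), with no overlap. DDR1 was at 44.04, 40.5 and 42.7 CPM in Vectors and at 37.3, 33.9 and 35.3 CPM in FOXL2WT. All 3 FOXL2WT libraries lay below Vectors, with a log2 fold change of -0.26 (SE 0.07, edgeR adjusted p = 0.0258). In FOXL2C134W, DDR1 was at 36.4, 38.5 and 39.7 CPM, also below Vectors, with a log2 fold change of -0.15 (edgeR adjusted p = 0.123). EPHA2 in FOXL2C134W spread from 263 to 309 CPM. The 8 uncalled members had log2 fold changes from -0.28 (PDGFRA) to 0.17 (DDR2), and those of EGFR and ERBB2 were -0.03 and 0.02. AXL and DDR2, called in FOXL2C134W vs Vectors, had 0.11 and 0.17 here (edgeR adjusted p 0.0895 and 0.0748). For both genes, all FOXL2WT libraries lay above all Vectors libraries. The median was -0.02 over the members and 0.00 over all genes. Both calls depended on the libraries: that of EPHA2 ended without any of the 6 libraries compared or without FOXL2C134W B (edgeR adjusted p from 0.0519 to 0.206), and that of DDR1 without Vectors A, Vectors C, FOXL2WT B or FOXL2WT C (edgeR adjusted p from 0.0715 to 0.130). In the fit of these 2 conditions alone, 4 members were called, with AXL and DDR2 in addition. AXL and DDR2 were also called with the gene length offset. Fibroblast and smooth muscle markers moved in both directions in this comparison, 1 higher and 4 lower of 8 tested, with TAGLN at 1567 CPM in Vectors and 2075 CPM in FOXL2WT and COL1A1 at 1538 and 1148 CPM, and their part in the calls of EPHA2 and DDR1 was not tested. In bulk RNA such as this, a lower level in every cell and fewer cells with the transcript cannot be told apart. The labels do not say whether libraries A, B and C came from separate cultures, so all p-values measure only the spread between these libraries.

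**Figure D4:**
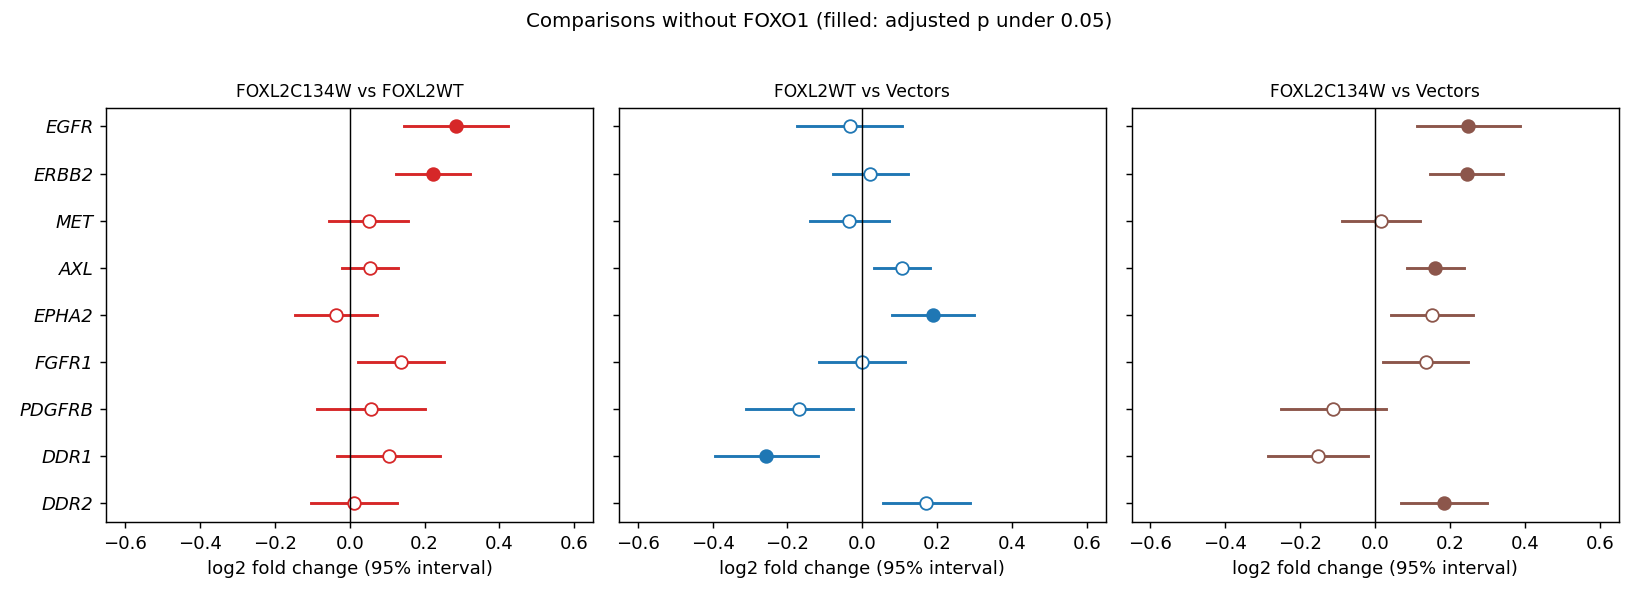
Log2 fold changes (x axis) of 9 members with 95% intervals from the edgeR fit in the 3 comparisons without FOXO1, where filled points have an adjusted p under 0.05. PDGFRA, at 14 to 35 counts, is left out. EGFR and ERBB2 are filled at 0.28 and 0.22 for FOXL2C134W vs FOXL2WT, DDR1 at -0.26 and EPHA2 at 0.19 for FOXL2WT vs Vectors.

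FOXO1 is a forkhead factor that growth factor signaling through AKT keeps out of the nucleus, whereas the constitutively active form added here remains in it. The addition of this form changed no member at the threshold. In FOXL2C134W + FOXO1 vs FOXL2C134W, 0 of 10 members were called by edgeR, against 99 of 13868 genes (0.714%), and DESeq2 called 0. The share of all genes at an unadjusted p under 0.05 was not counted in any comparison. Of the members, 3 had such a p here. These 3 were ERBB2, DDR1 and EGFR, each with a lower mean in the presence of FOXO1. ERBB2 was at 52.6, 54.3 and 54.7 CPM in FOXL2C134W + FOXO1, below all FOXL2C134W libraries. These values lay only narrowly above the 9 libraries of Vectors, FOXL2WT and FOXL2WT + FOXO1. Library A had 52.57 CPM against 52.48 CPM in FOXL2WT + FOXO1 B. The log2 fold change of ERBB2 against FOXL2C134W was -0.13 (95% interval -0.23 to -0.03, edgeR adjusted p = 0.241). EGFR was at 114, 125 and 124 CPM, of which the first lay below all FOXL2C134W libraries and the others above FOXL2C134W A, with a log2 fold change of -0.15 (95% interval -0.29 to -0.01, edgeR adjusted p = 0.388). DDR1 was at 32.0, 34.4 and 35.9 CPM, with a log2 fold change of -0.16 (95% interval -0.30 to -0.03, edgeR adjusted p = 0.323). The members ranged from -0.16 (DDR1) to 0.09 (MET), with a median of -0.06 against 0.00 over all genes. Without FOXL2C134W A, 1 member, EGFR, was called (edgeR adjusted p = 0.0261). Trends in gene length and GC content were present in this comparison too. The median log2 fold change of all genes went from 0.02 in the shortest length class to -0.04 in the longest. By GC content it went from 0.03 in the lowest class to -0.05 in the highest. Over the 10 other settings, EGFR ranged from -0.20 to -0.05 and ERBB2 from -0.14 to -0.02. The part of these trends in the lower means was not tested.

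In FOXL2WT + FOXO1 vs FOXL2WT, edgeR called 0 of 10 members against 7 of 13868 genes (0.0505%), 1 member had an unadjusted p under 0.05 and DESeq2 called 0. This was DDR1, at 43.5, 37.5 and 37.8 CPM with FOXO1, above the FOXL2WT libraries. Its log2 fold change was 0.15 (95% interval 0.01 to 0.29, edgeR adjusted p = 0.515), and the members ranged from -0.08 (EPHA2) to 0.59 (PDGFRA, 95% interval -0.05 to 1.23). EGFR was at 102, 117 and 104 CPM and ERBB2 at 51.7, 52.5 and 48.4 CPM, and both overlapped with FOXL2WT. In FOXL2C134W + FOXO1 vs FOXL2WT, 0 of 10 members were called by edgeR against 234 genes (1.69%), 2 had an unadjusted p under 0.05 and DESeq2 called 0. Those were MET, with a log2 fold change of 0.14 (edgeR adjusted p = 0.152), and FGFR1 with 0.12 (edgeR adjusted p = 0.235). EGFR and ERBB2, the members called between FOXL2C134W and FOXL2WT, had 0.13 and 0.09 in this comparison. For each of them, and likewise for AXL, FGFR1 and MET, all 3 FOXL2C134W + FOXO1 libraries lay above all 3 FOXL2WT libraries. The share of all genes without overlap was not counted in any comparison. The difference between the FOXO1 effects in the mutant and wild type conditions was tested directly. Again edgeR called 0 of 10 members, against 192 genes (1.38%), 1 had an unadjusted p under 0.05 and DESeq2 called 0. That member was DDR1, whose FOXO1 effect was lower in the mutant condition by a log2 value of -0.31 (95% interval -0.51 to -0.12, edgeR adjusted p = 0.114). These comparisons share the FOXL2C134W or FOXL2WT libraries with those above. The added FOXO1 cannot be told apart from the lower SMAD3 level in both FOXO1 conditions, nor from the lower FOXL2 level in FOXL2WT + FOXO1, and the latter also enters the difference between the FOXO1 effects.

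**Figure D5:**
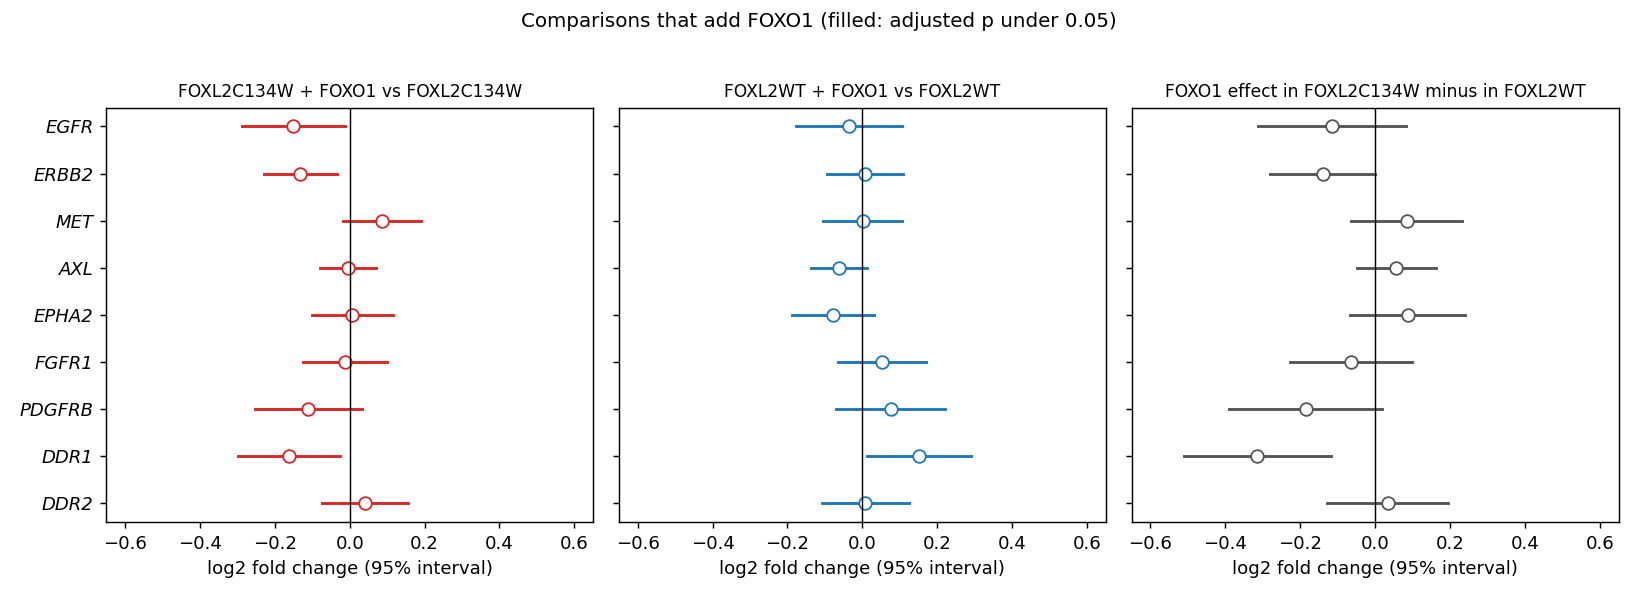
Log2 fold changes (x axis) of 9 members with 95% intervals from the edgeR fit for the addition of FOXO1 to FOXL2C134W, its addition to FOXL2WT, and the difference between the 2 effects. PDGFRA is left out for its low counts. No point is filled, since 0 members had an adjusted p under 0.05, and DDR1 lies at -0.16, 0.15 and -0.31.

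MET, FGFR1, PDGFRA and PDGFRB were called in 0 of the 7 comparisons. MET was nearly level, with means of 288 ± 9.11 CPM in Vectors, 281 ± 13.5 CPM in FOXL2WT and 291 ± 15.4 CPM in FOXL2C134W (SD, n = 3). Its highest mean, 308 ± 17.0 CPM (SD, n = 3), was that of FOXL2C134W + FOXO1. FGFR1 (ENSG00000077782, chr8:38400215-38468834, minus strand) had means of 58.5 ± 2.78, 58.4 ± 1.51 and 64.3 ± 1.81 CPM in Vectors, FOXL2WT and FOXL2C134W (SD, n = 3). PDGFRB, a receptor of mesenchymal and mural cells, had means of 39.2 ± 3.40, 34.8 ± 2.17 and 36.3 ± 0.720 CPM in the same order (SD, n = 3). Its relative PDGFRA lay between 0.646 and 1.61 CPM in all libraries, and the 95% interval of its log2 fold change included 0 in every comparison.

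Of 118 genes in 6 lists around the receptors (other receptors, ligands, adaptors, feedback inhibitors, ERK-driven transcripts and proteases), 11 were called in FOXL2C134W vs FOXL2WT, which is 9.32% beside the 11.2% of all genes, a share near the background. Of 28 other receptor tyrosine kinases tested (20 of the 48 listed had too few counts), 2 rose and 1 fell in FOXL2C134W vs FOXL2WT. Those that rose were LMTK2 with a log2 fold change of 0.26 and IGF1R, the receptor of insulin-like growth factors, with 0.20 (edgeR adjusted p 0.0369 and 0.0204). Of 21 ligands tested, 2 rose and 1 fell. The collagen genes COL4A1 and COL1A1, whose products activate the DDR receptors, had 0.24 and 0.23 (edgeR adjusted p 0.000674 and 0.00917). EFNA1, which encodes the ephrin-A1 ligand of EPHA2, was at a mean of 14.1 CPM in FOXL2C134W and 19.3 CPM in FOXL2WT, with a log2 fold change of -0.46 (edgeR adjusted p = 0.00212). EPHA2 itself had -0.04 in that comparison. Of 33 adaptors, effectors and ubiquitin ligases 1 rose, PTPN11, which encodes the phosphatase SHP2, with 0.18 (edgeR adjusted p = 0.0396). Of 18 feedback inhibitors 2 rose and 1 fell, LRIG1 with 0.29, SPRED2 with 0.27 and the EGFR and ERBB2 inhibitor ERRFI1 with -0.13 (edgeR adjusted p 0.0212, 0.0119 and 0.0226). Of 12 ERK-driven transcripts 1 rose, the AP-1 subunit FOSL1, with 0.28 (edgeR adjusted p = 0.00125). Of the 7 cleavage proteases and their inhibitors, edgeR called 0, with 0 at an unadjusted p under 0.05 and 0 by DESeq2. The medians of these 6 lists lay between -0.07 and 0.01, against -0.01 over all genes. In DESeq2 with transcript lengths 5 of the 118 genes were called, with 0 of the other receptors and 0 of the feedback inhibitors, so that LMTK2, IGF1R, LRIG1, SPRED2 and ERRFI1 lost the call there, as did PTPN11. LMTK2, PTPN11 and LRIG1 also lost it with the gene length offset, COL4A1 with the replicate block and length offset, and ERRFI1 with the filter of at least 1 count. PTPN11 was called in 10 of 15 fits that left out a library, LMTK2, LRIG1 and ERRFI1 in 11, IGF1R in 12, SPRED2 in 13 and COL1A1 in 14. Most of the 15 libraries belong to conditions outside FOXL2C134W vs FOXL2WT, so most of these fits kept all libraries compared. EFNA1 and FOSL1 were called in all 10 other settings and in all 15 of those fits.

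The known ligands of the called receptors were present at different levels. HBEGF, an EGFR ligand, had means of 102 CPM in FOXL2WT and 96.9 CPM in FOXL2C134W (log2 fold change -0.07, edgeR adjusted p = 0.442), while EGF had 2 to 15 counts, TGFA 6 to 27 and EREG 0 to 4. The ERBB2 partner ERBB3 had 29 to 68 counts. GAS6, the ligand of AXL, had means of 166 CPM in Vectors and 170 CPM in FOXL2C134W (log2 fold change 0.03, edgeR adjusted p = 0.758). PROS1, the other AXL family ligand, was at 67.5 CPM in Vectors and 56.5 CPM in FOXL2C134W, a log2 fold change of -0.26 (edgeR adjusted p = 0.00743). HGF, the ligand of MET, had 0 to 2 counts, so its receptor was abundant in cells with almost no transcript of the ligand.

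In FOXL2C134W vs Vectors, 23 of the 118 genes were called (19.5%, beside 14.7% of all genes). Of 28 other receptors 2 rose and 4 fell, of 21 ligands 1 and 3, of 33 adaptors 2 and 2, of 18 feedback inhibitors 1 and 3, of 12 ERK-driven transcripts 2 and 3, and of 7 proteases and inhibitors 0 and 1, with EPHA4 counted in 2 lists. In FOXL2WT vs Vectors, 9 of the 118 were called (7.63%, beside 6.07% of all genes), of which 1 other receptor rose and 1 fell, and the ligands gave 0 and 2, the adaptors 1 and 0, the feedback inhibitors 0 and 1 and the ERK-driven transcripts 1 and 2. DESeq2 with transcript lengths called 12 and 4 of the 118. With FOXO1 added, edgeR called 0 of the 118 genes, beside 0.714% of all genes in FOXL2C134W and 0.0505% in FOXL2WT. An unadjusted p under 0.05 was found for 12 of them in FOXL2C134W and 14 in FOXL2WT, with no count of all genes at that cut. DESeq2 called 3 and 0, and DESeq2 with transcript lengths 0 and 2.

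The reads of most members came from 1 transcript. EGFR-201 held 99.8% of the EGFR reads (mean over 15 libraries), EPHA2-201 99.3%, PDGFRB-201 93.6%, MET-202 86.3%, AXL-201 84.7% and DDR2-201 84.7%. ERBB2 was divided among ERBB2-201 (59.1%), ERBB2-203 (15.1%) and ERBB2-204 (13.9%), and DDR1 among 5 transcripts, the leading of which held 32.3%. FGFR1-201 and FGFR1-204, of 3816 and 3824 bases, took different shares of the FGFR1 reads in different libraries. FGFR1-201 held 48.9 to 52.9% in all 6 FOXL2WT and FOXL2WT + FOXO1 libraries, where FGFR1-204 was at 0. In Vectors A, B and C, FGFR1-204 led with 41.3, 45.9 and 27.0%, against 0, 0 and 21.9% for FGFR1-201. In FOXL2C134W A, B and C, FGFR1-201 held 47.1, 0 and 40.3% and FGFR1-204 0, 44.1 and 6.76%, and in FOXL2C134W + FOXO1 FGFR1-201 held 0, 0 and 48.1% and FGFR1-204 44.7, 51.8 and 0%. The conditions with FOXL2WT were thus uniform, whereas both mutant conditions held libraries of either kind. The sum of both transcripts lay between 41.3 and 52.9% in all 15 libraries. These shares are estimates for transcripts of nearly equal length and were not tested.

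The genes whose log2 CPM tracked a called member most closely over the 15 libraries were AHNAK (Pearson r = 0.931) and NBPF14 (0.930) for EGFR, FLNA (0.936) and FLII (0.934) for ERBB2, URB1 (0.944) and PARVA (0.934) for AXL, and SRF (0.931) and ZNF768 (0.915) for EPHA2. For DDR1 they were ADGRG1 (0.854) and STEAP4 (0.840), and for DDR2 LARS1 (0.899). Among pairs of members, ERBB2 and FGFR1 had the highest r, 0.814, followed by AXL and EPHA2 with 0.783 and EGFR and ERBB2 with 0.782. These are descriptions over libraries that share conditions, depth and length trends, picked as the highest among 13867 genes.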

How the data were processed

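RNA-seq of HGrC1 cells (TruSeq stranded mRNA, 75-base single-end reads) was quantified by the authors. Per the submitters' processing notes Salmon 1.1.0, DESeq2 and hg38 were used. The deposited gene table holds estimated counts, and the deposited transcript tables hold estimated counts and TPM per library. The gene table differed from the summed transcript estimates by more than 1 count for 9 genes, of which 0 were members. Totals were 14962245 to 25339094 counts per library, and 15042 of 37787 genes had no count. Counts do not separate plasmid from endogenous transcripts.

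Counts were rounded, filtered with filterByExpr (13868 genes left), scaled by TMM and tested over all 15 libraries with the edgeR 4.0.16 quasi-likelihood test (R 4.3.3, limma 3.58.1) with Benjamini-Hochberg adjustment over all genes tested, at a threshold of 0.05. Error bounds are SE and 95% intervals. Scripts were tested on simulated data. Alternatives were DESeq2 1.42.0 on the gene counts and with transcript lengths, other filters, a fit of the conditions compared only, offsets for gene length and GC content, a replicate block, and each library left out. The table work used Python 3.11.15, pandas 2.3.3, numpy 2.4.6 and matplotlib 3.10.9. Gene coordinates and GC content came from GENCODE 44, in which 98.4% of the transcripts were found and which may not be the authors' release. Transcript lengths were those deposited with the transcript estimates. Promoters came from RefSeq.

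The members and lists were chosen with earlier results of these data known. All members are named, with full statistics where called. Of each other list, up to 2 called genes per direction in FOXL2C134W vs FOXL2WT and the FOXO1 comparisons are named, plus ligands and relatives of called members and the 2 genes most correlated with each. Some genes that this rule names are not reported here. Groups followed the labels. The letters A, B and C were not treated as pairs.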

Additional observations from a re-analysis of the deposited data

How the results depend on the processing

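No called value changed sign under any alternative run. Log2 fold changes were checked for called members, list genes chosen by the naming rule, and the transfected FOXL2, SMAD3 and FOXO1. Of these, 202 values under other settings kept direction and call and 26 lost the call. With 1 of all 15 libraries left out, mostly 1 outside the comparison, 298 kept and 47 lost it. The transfected genes kept the call in every fit, which raises the number kept. Causes were not tested. Members called in FOXL2C134W vs FOXL2WT (2) were 1 in DESeq2 with transcript lengths and 1 to 2 with a library left out (1 without FOXL2C134W B). The members called also changed: with the length offset EGFR lost the call, while DDR2 (lower) and FGFR1 (higher) gained it. With the block and length offset EGFR lost the call and DDR2 gained it. ERBB2 kept the call under both. In FOXL2WT vs Vectors (2) they were 4 with only the conditions compared, 4 with the length offset, 4 with the replicate block and length offset, and 0 to 3 with a library left out (0 without Vectors A, Vectors C, FOXL2WT B or FOXL2WT C). In FOXL2C134W vs Vectors (4) they were 2 in DESeq2 with transcript lengths, 1 with the length offset, 1 with the block and length offset, and 2 to 5 with a library left out (2 without Vectors B or FOXL2C134W B). In FOXL2C134W + FOXO1 vs FOXL2C134W (0) they were 0 to 1 (1 without FOXL2C134W A).

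Genes called over the whole table moved more. In FOXL2C134W vs FOXL2WT (1560) they were 718 in DESeq2 with transcript lengths and 772 (without FOXL2WT B) to 2120 with a library left out. In FOXL2WT vs Vectors (842) they were 452 in DESeq2 with transcript lengths, 1345 with at least 1 count in any library, 1690 with only the conditions compared, and 305 (without Vectors A) to 1086. In FOXL2C134W vs Vectors (2041) they were 939 in DESeq2 with transcript lengths, and 1275 (without FOXL2C134W B) to 2295. In FOXL2C134W + FOXO1 vs FOXL2C134W (99) they were 219 in DESeq2, 58 with transcript lengths, 463 with at least 1 count, 170 with at least 10 counts in every library, 32 with only the conditions compared, 42 with the GC offset, and 5 to 355 (without FOXL2C134W A). In FOXL2WT + FOXO1 vs FOXL2WT (7) they were 67, 62, 260, 13 and 14 under the same first 5 settings, 26 with the length offset, 22 with the GC offset, 22 with block and length offset, and 2 to 10. In FOXL2C134W + FOXO1 vs FOXL2WT (234) they were 608 in DESeq2, 1046 with at least 1 count, 518 with only the conditions compared, 460 with the length offset, 650 with the GC offset, 487 with block and length offset, and 36 (without FOXL2WT B) to 523. For the difference of the FOXO1 effects (192) they were 361 in DESeq2, 113 with transcript lengths, 551 with at least 1 count, and 45 to 423.

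Same-letter libraries had correlations of -0.16 to 0.12, but libraries of different letters were not compared. Whether the letters mark pairs was therefore not tested. With the replicate block 3 members were called in FOXL2WT vs Vectors and 4 in FOXL2C134W vs Vectors, and 1562 genes in FOXL2C134W vs FOXL2WT.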
